A study of Homo sapiens with 12 samples.

Results

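The 6 genes described here encode the machinery that attaches the ubiquitin-like protein ISG15 to other proteins and removes it again. They were chosen by name, as *ISG15*, *UBA7*, *UBE2L6*, *HERC5*, *HERC6* and *USP18*, and all 6 were found among the 45416 genes of the deposited table. ISG15 is made from an interferon-stimulated gene and can be joined to lysines of target proteins in a cascade like that of ubiquitin, a process called ISGylation. UBA7 is the activating (E1) enzyme, UBE2L6 the conjugating (E2) enzyme, and HERC5 the main ISG15 ligase (E3) of human cells. HERC6 is a closely related ligase, and USP18 both removes ISG15 from proteins and binds the type I interferon receptor chain IFNAR2, where it restrains signalling. ISG15 also acts unconjugated, inside cells and as a secreted protein. The genes respond strongly to type I interferons, and some respond to IFNγ as well.

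The values came from 12 RNA-seq libraries of U251 cells, an established human glioblastoma line labelled as wild type in genotype, with 2 libraries in each of 6 groups. Cells were transfected with a control siRNA (siNC) or with either of a pair of siRNAs directed at *PD-L1* (siPDL1-1 and siPDL1-2). For each siRNA, cells were left unstimulated (siNC-C, siPDL1-1-C and siPDL1-2-C) or were given 100 U/ml IFNγ for 24 h, starting 48 h after transfection (siNC-IFN, siPDL1-1-IFN and siPDL1-2-IFN). All groups were therefore transfected with an siRNA, a single cell line was used, and the same siNC libraries served as the control for both *PD-L1* siRNAs.

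The libraries held between 17101069 and 55657393 reads on genes, and 1 read was worth between 0.0187 and 0.0586 units of the normalized CPM scale (counts per 1e6 reads). Of 8 astroglial and glioma markers, *VIM* (3139 to 3968 CPM), *NES* (127 to 190 CPM) and *SOX2* (108 to 213 CPM) were high in every library. The rest were low. *GFAP*, the astrocyte filament protein, was at 1.92 to 7.25 CPM, *S100B* at 2.40 to 5.92 and *ALDH1L1* at 1.53 to 2.94. *OLIG2* did not exceed 0.359 CPM, nor *AQP4* 0.364 CPM. Markers of other cells, such as *PTPRC* of leukocytes (at most 0.176 CPM), *CD3E* of T cells (at most 0.0240 CPM), *MS4A1* of B cells (0 CPM) and *PECAM1* of endothelium (at most 0.297 CPM), were at or near 0. Others of the 16 markers of other cells were not, with *KRT18* at 60.3 to 95.3 CPM, *CD68* at 28.2 to 80.2, *NCAM1* at 22.9 to 43.5 and *VWF* at 1.47 to 4.78, and the list summed to between 142 and 174 CPM. The siRNA target *CD274*, which encodes PD-L1, was 73.6 ± 3.43 CPM in siNC-IFN, 63.8 ± 4.04 CPM in siPDL1-1-IFN and 36.3 ± 1.76 CPM in siPDL1-2-IFN (mean ± SD, n = 2 each). Against siNC after IFNγ, its log2 fold change with siPDL1-1 was -0.20 (FDR = 0.0604, limma). With siPDL1-2 its mean was 0.493 times that of siNC (FDR = 2.79e-05, limma), and a fall was called. Without stimulation, a fall was called with siPDL1-1 (0.568 times siNC, FDR = 1.76e-05) and not with siPDL1-2 (0.738 times, FDR = 0.00183, below the fold threshold).

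In GRCh38, *ISG15* (ENSG00000187608) was listed on the plus strand of chromosome 1 (1001138 to 1014540), *UBA7* (ENSG00000182179) on the minus strand of chromosome 3 (49805209 to 49813953) and *UBE2L6* (ENSG00000156587) on the minus strand of chromosome 11 (57551656 to 57568284). *HERC6* (ENSG00000138642, 88378739 to 88443097) and *HERC5* (ENSG00000138646, 88457119 to 88506163) lie next to each other on the plus strand of chromosome 4, separated by 14021 bases. *USP18* (ENSG00000184979) was on the plus strand of chromosome 22 (18150170 to 18177397). RefSeq promoter windows of GRCh38.p14 were matched for 4 of the 6 genes, and *UBA7* and *USP18* were without one. The 250 bases before a RefSeq start of each matched gene are shown. For *ISG15*, *HERC6* and *UBE2L6* that start lies inside the extent listed above, so their windows fall partly or wholly within it. The windows are shown because the core of the interferon-stimulated response element was found in some of them and not in others. This core is GAAA, any 2 bases, GAAA, on either strand. Capitals mark matches to this core, which overlap each other where a run of capitals is longer than the core.
ISG15, chr1:1013247-1013496, plus strand: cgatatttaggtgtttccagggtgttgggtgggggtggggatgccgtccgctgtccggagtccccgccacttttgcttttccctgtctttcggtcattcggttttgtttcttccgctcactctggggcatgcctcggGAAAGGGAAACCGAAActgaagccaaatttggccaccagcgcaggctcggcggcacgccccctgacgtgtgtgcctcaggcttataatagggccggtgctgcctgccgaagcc
HERC5, chr4:88456869-88457118, plus strand: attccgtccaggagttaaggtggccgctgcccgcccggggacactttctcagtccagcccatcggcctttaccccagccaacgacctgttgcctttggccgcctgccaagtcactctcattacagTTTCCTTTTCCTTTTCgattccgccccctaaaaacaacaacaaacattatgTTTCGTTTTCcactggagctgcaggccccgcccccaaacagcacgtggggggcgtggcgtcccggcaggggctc
HERC6, chr4:88378602-88378851, plus strand: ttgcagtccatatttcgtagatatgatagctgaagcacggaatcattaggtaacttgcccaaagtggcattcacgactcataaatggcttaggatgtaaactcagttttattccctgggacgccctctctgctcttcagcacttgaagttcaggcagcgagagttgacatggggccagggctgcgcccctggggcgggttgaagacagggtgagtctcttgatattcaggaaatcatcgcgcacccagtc
UBE2L6, chr11:57567673-57567922, minus strand: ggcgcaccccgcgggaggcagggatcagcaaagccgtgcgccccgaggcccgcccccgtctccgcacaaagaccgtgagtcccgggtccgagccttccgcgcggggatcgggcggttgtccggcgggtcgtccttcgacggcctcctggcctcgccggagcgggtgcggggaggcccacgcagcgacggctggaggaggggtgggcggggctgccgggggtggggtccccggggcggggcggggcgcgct

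The *ISG15* window held 2 overlapping matches on the strand of the gene, beginning 113 and 107 bases before its RefSeq start. In *HERC5* there were 3 matches, all on the opposite strand, at 125, 119 and 74 bases before the start. The windows of *HERC6* and *UBE2L6* held none, and neither did another *UBE2L6* window at an upstream start. Of 35116 promoter windows of 300 bases in the table, 3.57% held this core, as did those of 16 of 21 type I interferon-response genes and 9 of 15 IFNγ-response genes with a window. The IFNγ-activated site (TTC, any 3 bases, GAA) was in 7.66% of all windows and in none of the windows of these 4 genes. A match describes the letters of the window and is not evidence of binding.

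The modifier itself was highest with the combination of siPDL1-1 and IFNγ. *ISG15* was at 14.8 and 17.4 CPM in the siNC-C libraries, 27.0 and 25.7 in siPDL1-1-C, and 13.6 and 12.7 in siPDL1-2-C. After IFNγ it was at 90.7 and 69.1 CPM in siNC-IFN, 616 and 527 in siPDL1-1-IFN, and 105 and 113 in siPDL1-2-IFN. All IFNγ libraries were above all unstimulated libraries, and both siPDL1-1-IFN libraries were far above the other IFNγ libraries.

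The E1 and E2 enzymes were far lower without IFNγ than in every group that received it. *UBA7* was at 4.16 and 4.35 CPM in siNC-C, 4.12 and 4.14 in siPDL1-1-C, and 5.20 and 5.43 in siPDL1-2-C. With IFNγ its values were 39.8 and 39.5 CPM in siNC-IFN, 103 and 98.7 in siPDL1-1-IFN, and 56.1 and 57.4 in siPDL1-2-IFN. The 3 IFNγ groups did not overlap one another, with siNC-IFN the lowest. *UBE2L6* was at 22.1 and 20.5 CPM in siNC-C, 19.4 and 19.3 in siPDL1-1-C, and 18.3 and 19.2 in siPDL1-2-C. It reached 248 CPM in both siNC-IFN libraries, 328 and 322 in siPDL1-1-IFN, and 239 and 248 in siPDL1-2-IFN, so that the siRNA groups differed little beside the step made by IFNγ.

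The ligases and the deconjugating enzyme followed another course, with a large step in 1 group only. *HERC5* averaged 14.8 CPM in siNC-C, 14.8 in siPDL1-1-C and 12.9 in siPDL1-2-C. After IFNγ it was at 24.6 and 24.4 in siNC-IFN, 20.2 and 18.9 in siPDL1-2-IFN, and at 145 and 147 CPM in siPDL1-1-IFN. *HERC6* was at 4.50 and 3.52 CPM in siNC-C and 3.80 and 4.52 in siNC-IFN, groups that overlapped. It was at 5.19 and 6.00 CPM in siPDL1-1-C, 5.37 and 6.13 in siPDL1-2-C, 6.68 and 7.57 in siPDL1-2-IFN, and 36.7 and 37.3 in siPDL1-1-IFN. The siPDL1-1-IFN libraries thus stood alone for both ligases. *USP18* was between 7.45 and 8.85 CPM in the unstimulated libraries, 19.4 and 20.6 in siNC-IFN, 16.1 and 15.4 in siPDL1-2-IFN, and 118 and 115 in siPDL1-1-IFN.

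**Figure D1:**
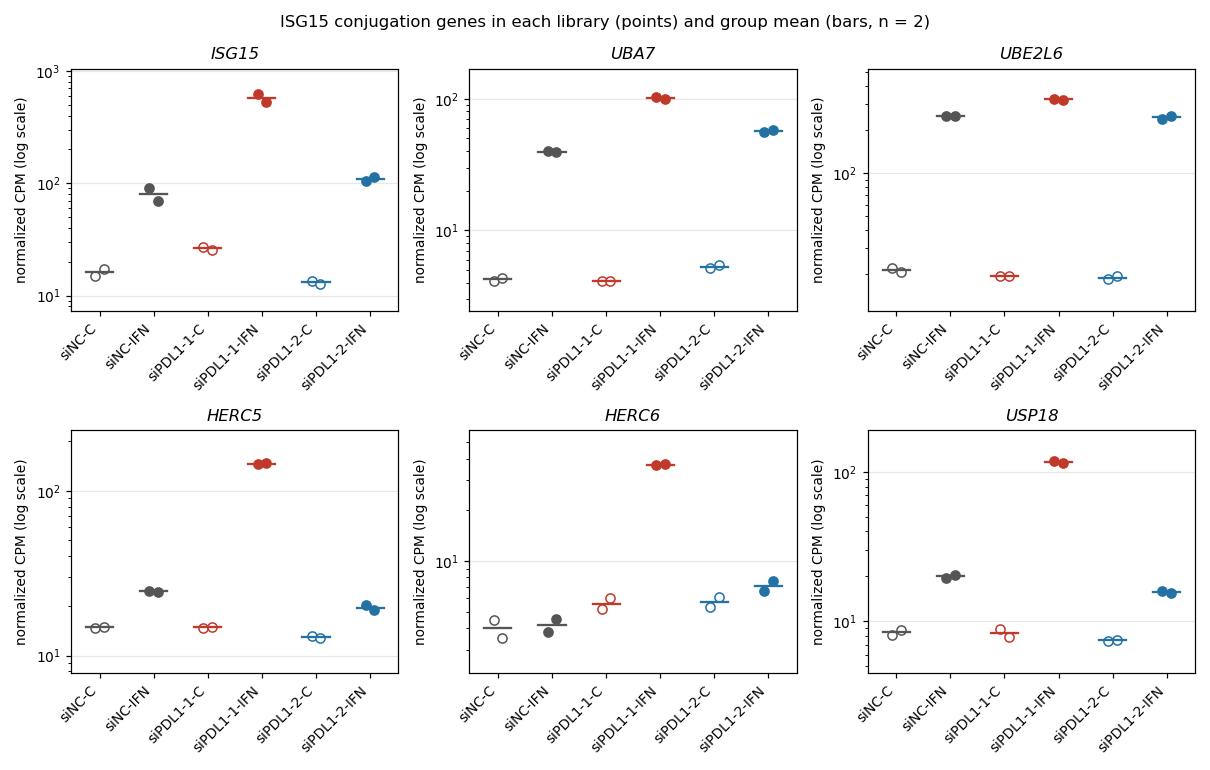
Normalized CPM (log axis) of the 6 genes in each of the 12 libraries, with open points for unstimulated and filled points for IFNγ-stimulated cells and a bar at each group mean. *UBE2L6* and *UBA7* are high in all 3 IFNγ groups, whereas *HERC5*, *HERC6* and *USP18* are high in siPDL1-1-IFN, where *HERC6* reaches 37.3 CPM.

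Bulk RNA does not separate a rise in every cell from a larger rise in some of them. For *USP18*, 52.9% of the 50-base stretches of its transcript also occur in other genes, 26.4% in *USP41*, and the authors' mapping allowed a read several positions. Mean levels in the 12 libraries were 0.465 CPM for *USP41* and 29.5 CPM for *USP18*, and the level of *USP18* is uncertain to the extent that shared reads were divided. For *HERC6*, 0.805% of the stretches were shared, with *HERC3*, and for the other 4 genes none. Reads were counted without regard to strand, and *AL645608.1*, which overlaps *ISG15* on the opposite strand, averaged 0.0588 CPM.

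The first comparison asked how the genes responded to IFNγ in control cells. The modifier, both enzymes upstream of the ligase, *HERC5* and *USP18* rose, and *HERC6* did not pass the test. Groups were compared with limma on log2(CPM + 1), and a gene was called at an FDR below 0.01 over all genes tested and a fold change above 1.5. In siNC cells, 5 of the 6 genes were called higher, where 6.67% of the 17982 genes tested were. *UBE2L6* had the largest log2 fold change, 3.48 (standard error 0.049, FDR = 5.83e-17), and its mean CPM rose 11.6-fold. *UBA7* followed with 2.95 (standard error 0.066, FDR = 1.45e-14) and *ISG15* with 2.24 (standard error 0.124, FDR = 4.07e-07), or 9.32-fold and 4.97-fold in mean CPM. *USP18* rose by 1.16 and *HERC5* by 0.69, with FDRs of 1.10e-08 and 3.71e-07. *HERC6* differed by 0.05, with a 95% interval from -0.20 to 0.30 (FDR = 0.794).

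With siPDL1-1, IFNγ raised all 6 genes, against 5.58% of all genes called higher in that comparison. The log2 fold changes were 4.38 for *ISG15*, 4.31 for *UBA7*, 4.00 for *UBE2L6*, 3.65 for *USP18*, 3.21 for *HERC5* and 2.53 for *HERC6*. The highest FDR among them was 1.52e-09, that of *ISG15*. In mean CPM, *ISG15* rose 21.7-fold, *UBA7* 24.4-fold and *HERC6* 6.61-fold.

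With siPDL1-2, 4 of the 6 genes were called higher after IFNγ, and 3.62% of all genes were. *UBE2L6* (3.63), *UBA7* (3.19), *ISG15* (2.95) and *USP18* (0.98) passed on the log2 scale. *HERC5* had a log2 fold change of 0.56 and an FDR of 4.58e-06, and missed the fold threshold at 1.48-fold. It was called at 0.60 with a pseudocount of 0.1, with edgeR and with DESeq2. *HERC6* had 0.27, with a 95% interval from 0.02 to 0.52 (FDR = 0.102).

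**Figure D2:**
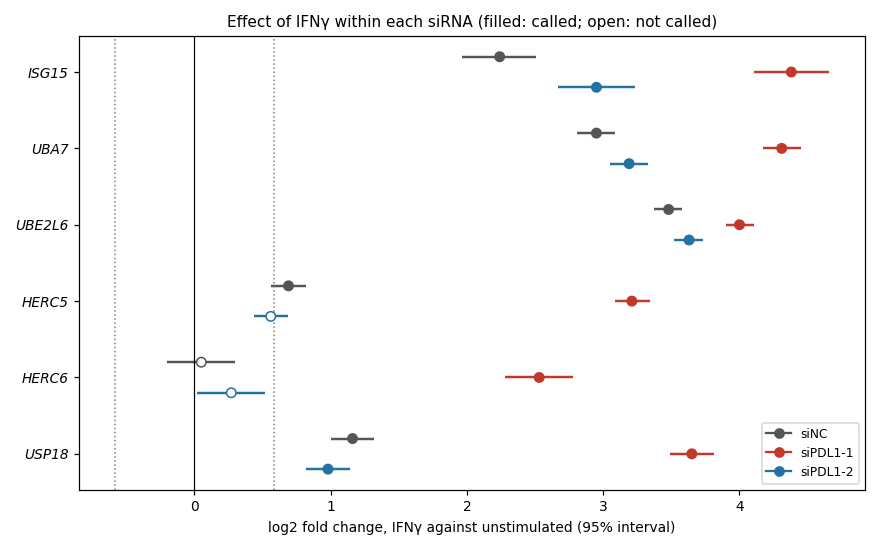
Log2 fold change of each gene, IFNγ against unstimulated cells, within each siRNA, with 95% intervals from limma. Dotted lines mark the 1.5-fold threshold. *HERC6* is near 0 with siNC (0.05) and at 2.53 with siPDL1-1.

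The next comparison asked whether the *PD-L1* siRNAs altered these genes before any IFNγ was added. With siPDL1-1, *ISG15* alone was called of the 6 genes, higher by 0.68 on the log2 scale (standard error 0.124, 95% interval 0.40 to 0.96, FDR = 0.00246), and 4.00% of all genes were called in either direction. This call was lost with edgeR (FDR = 0.0167) and when siNC-C replicate 1, siPDL1-1-C replicate 1 or siPDL1-1-C replicate 2 was left out (log2 fold changes 0.57, 0.65 and 0.72). *HERC5* differed by 0.00 (95% interval -0.13 to 0.13) and *USP18* by -0.01 (-0.17 to 0.15), and the *HERC6* value was 0.40 with an FDR of 0.0178. In the same comparison, limma called 13 of 25 type I interferon-response genes higher and 0 lower, with a median of 0.63. For that list, edgeR and DESeq2 called 14 each. Of 21 IFNγ-response genes, limma called 0, while 6 had an unadjusted p under 0.05 and 4 an FDR under 0.01. At a share of 4.00%, a list of 21 genes may hold 0 calls. With siPDL1-2, limma called 0 of the 6, as did edgeR and DESeq2, against 6.17% of all genes. There, 4 had an unadjusted p under 0.05, and the log2 fold changes ran from -0.27 for *ISG15* to 0.43 for *HERC6*. Between the siRNAs, *ISG15* was higher with siPDL1-1 by 0.95 (FDR = 0.000293) and was the 1 gene of the 6 called, against 4.35% of all genes.

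After IFNγ, siPDL1-1 cells had more RNA of the modifier, the E1 enzyme, both ligases and *USP18* than siNC cells, and the E2 enzyme differed least. Of the 6 genes, 5 were called higher, and 3.76% of the 17148 genes tested in the 6 IFNγ libraries were. By limma, *HERC6* was higher by 2.88 on the log2 scale (standard error 0.105, FDR = 1.90e-08), *ISG15* by 2.83 (standard error 0.130, FDR = 9.23e-06) and *HERC5* by 2.53 (standard error 0.067, FDR = 1.26e-09). *USP18* was higher by 2.49 (standard error 0.071, FDR = 2.28e-09) and *UBA7* by 1.32 (standard error 0.062, FDR = 1.54e-07). In mean CPM these were 8.89-fold, 7.16-fold, 5.96-fold, 5.83-fold and 2.54-fold. Ranked by log2 fold change among all genes tested, *HERC6* was number 15, *ISG15* 17, *HERC5* 20, *USP18* 22 and *UBA7* 79. *UBE2L6* was higher by 0.39 (95% interval 0.28 to 0.51, FDR = 0.000316), a 1.31-fold difference that was below the fold threshold.

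With siPDL1-2 after IFNγ, *HERC6* was the 1 gene called, against 2.91% of all genes. *HERC6* was higher by 0.66 (standard error 0.105, FDR = 0.00194). The call was lost without siPDL1-2-IFN replicate 1 (0.73, FDR = 0.0149), without siPDL1-2-IFN replicate 2 (0.58, FDR = 0.0336) and without siNC-IFN replicate 1 (0.55, below the fold threshold). *UBA7* had 0.51 and *ISG15* 0.45, with FDRs of 0.000473 and 0.0479. The *ISG15* value rested on the siNC-IFN libraries: it was 0.64 and called without siNC-IFN replicate 1 (FDR = 8.56e-06), and 0.26 without siNC-IFN replicate 2 (FDR = 0.0761). *HERC5* and *USP18* were at -0.31 and -0.33, with FDRs of 0.00889 and 0.00907 and folds under the threshold. *UBE2L6* was at -0.03 (95% interval -0.14 to 0.09).

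Set against each other after IFNγ, the siRNAs differed in 5 of the 6 genes, all higher with siPDL1-1, where 1.73% of all genes were called higher. The log2 differences were 2.84 for *HERC5*, 2.81 for *USP18*, 2.38 for *ISG15*, 2.23 for *HERC6* and 0.82 for *UBA7*, and the highest FDR was 4.04e-05. *UBE2L6* differed by 0.42 (FDR = 0.000503), below the fold threshold.

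**Figure D3:**
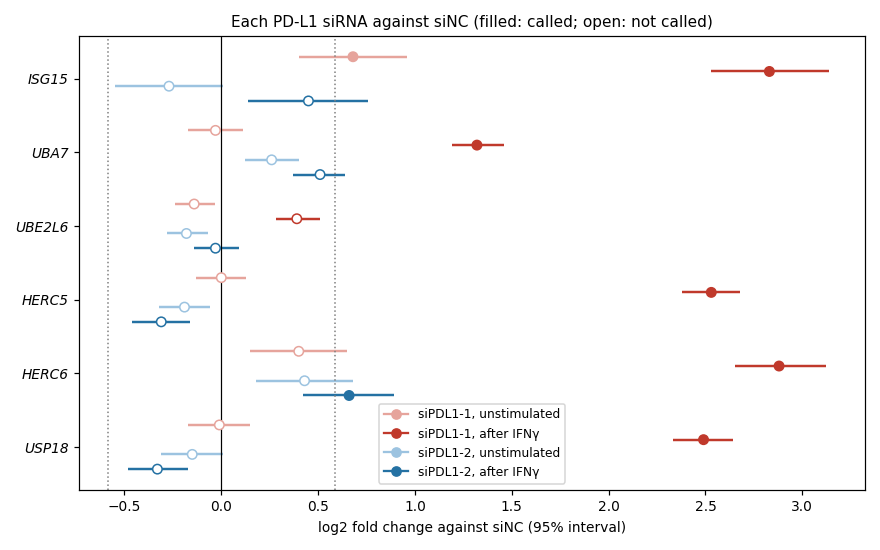
Log2 fold change of each gene with each *PD-L1* siRNA against siNC, unstimulated and after IFNγ, with 95% intervals from limma. Dotted lines mark the 1.5-fold threshold. The siPDL1-1 values after IFNγ lie between 0.39 (*UBE2L6*) and 2.88 (*HERC6*), while the siPDL1-2 values after IFNγ lie between -0.33 and 0.66.

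Whether an siRNA changed the response to IFNγ was tested as the difference between the IFNγ effect with that siRNA and the IFNγ effect with siNC. For siPDL1-1, 5 of the 6 genes had a larger response, against 0.890% of all genes. The differences were 2.53 for *HERC5* (95% interval 2.35 to 2.71), 2.49 for *USP18* (2.27 to 2.72), 2.48 for *HERC6* (2.13 to 2.84), 2.15 for *ISG15* (1.75 to 2.54) and 1.36 for *UBA7* (1.16 to 1.55). *HERC5* ranked 9 and *USP18* 11 among the 17982 genes. The difference for *UBE2L6* was 0.53 (0.38 to 0.67, FDR = 0.000249), below the fold threshold. For siPDL1-2, limma and edgeR called 0 of the 6 genes and DESeq2 called 1, *ISG15*, against 7.62% of all genes by limma, and 3 had an unadjusted p under 0.05. The largest difference there was 0.72 for *ISG15* (FDR = 0.0132).

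Per length of transcript, the modifier and the E2 enzyme were the most abundant throughout. Levels per kb of exon were taken over the canonical transcripts, which range from 637 bases for *ISG15* to 3776 for *HERC6*. In siNC-C cells the order was *ISG15* (25.2 CPM per kb), *UBE2L6* (17.5), *USP18* (4.54), *HERC5* (4.22), *UBA7* (1.29) and *HERC6* (1.06), and no neighbours in it overlapped. The first pair was in the reverse order in siNC-IFN, where *UBE2L6* was at 203 and *ISG15* at 125 CPM per kb, and in siPDL1-2-IFN, where they were at 200 and 170. In siPDL1-1-IFN, *ISG15* was at 898 and *UBE2L6* at 267 CPM per kb. *UBA7* was above both *HERC5* and *USP18* in siNC-IFN, at 12.0 against 6.98 and 10.8 CPM per kb. In siPDL1-1-IFN it was below them, at 30.5 against 41.6 and 62.8. The *UBA7* and *HERC6* libraries overlapped in siPDL1-2-C, the only such case among neighbours in the order.

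**Figure D4:**
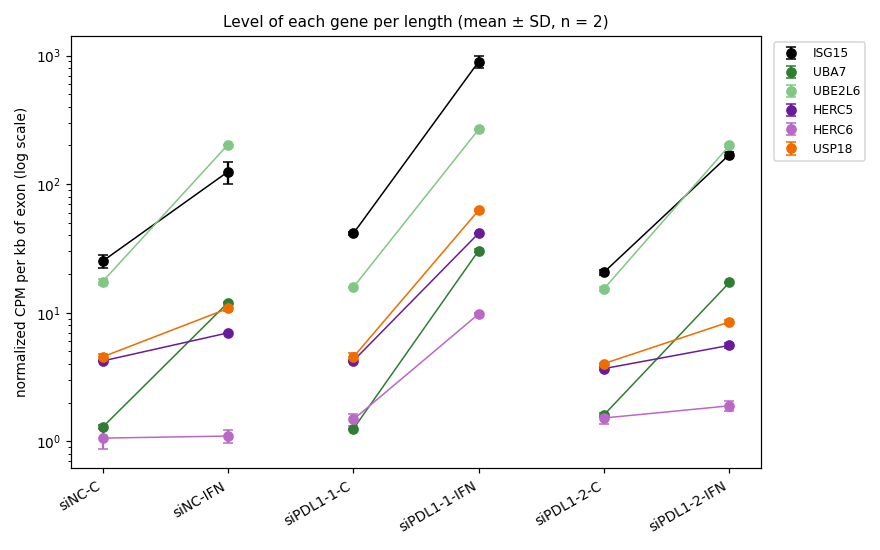
Mean level of each gene in CPM per kb of exon (log axis) with SD over 2 libraries, the unstimulated and IFNγ groups of each siRNA joined by lines. *ISG15* is above *UBE2L6* in siPDL1-1-IFN (898 against 267) and below it in siNC-IFN (125 against 203).

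Over the 12 libraries, pairs of the genes differed in how alike they were. Pearson's r of log2(CPM + 1) was 0.985 between *UBA7* and *UBE2L6* and 0.990 between *HERC5* and *USP18*, and lowest, 0.527, between *UBE2L6* and *HERC6*. These values describe 12 libraries that share 6 conditions. Among 14272 other expressed genes, those most like *UBE2L6* were the immunoproteasome subunit *PSMB8* (r = 0.9994), *ETV7* and the peptide transporter *TAP1*. Those most like *UBA7* were *IFI35*, *XAF1* and *TAP2*. For *ISG15* they were *HELZ2* (r = 0.9984), *OAS2* and *IFI44L*, and for *USP18* *TRIM25* (r = 0.9933), *AC020931.1* and *DDX58*. *HERC5* was most like *PNPT1*, *IL4I1* and *ZCCHC2*, and *HERC6* most like *RASGRP3*, *CNP* and *N4BP1*. The mean of the 6 genes was closest to *OAS3*, *SAMD9*, *ZC3HAV1*, *IFI44* and *ISG20*.

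Among genes that work with the machinery, a pair was higher and a ligase lower with siPDL1-1 after IFNγ. Of 10 accessory factors, 9 could be tested, and in siPDL1-1 against siNC 2 were higher and 1 lower. Of all 17148 genes tested, 3.76% were called higher and 946 were called in either direction. The median log2 fold change was 0.09 for the accessory factors and -0.01 for all genes. *TRIM25*, a ubiquitin ligase also described as an ISG15 ligase, was at 184 CPM in siNC-IFN, 454 in siPDL1-1-IFN and 177 in siPDL1-2-IFN (log2 fold change 1.30 for siPDL1-1, FDR = 8.78e-08). *STAT2*, through which USP18 is held at the receptor, was at 133, 403 and 158 CPM in the same groups (1.59, FDR = 1.57e-08). *ARIH1*, another ligase reported to act on ISG15, was lower with siPDL1-1, at 64.0 against 99.4 CPM (-0.63, FDR = 4.59e-05), and was at 84.4 CPM in siPDL1-2-IFN. It was already lower with siPDL1-1 without IFNγ, at 53.7 against 74.9 CPM, though not called there.

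Relatives of the 6 genes outside the ISG15 pathway were not called by limma with siPDL1-1 against siNC after IFNγ. In that comparison, limma, edgeR and DESeq2 called 0 of 4 other HERC ligases and 0 of 15 other E1 and E2 enzymes. Their medians were -0.04 and -0.16, and 1 and 8 had an unadjusted p under 0.05. Over all genes, limma called 946 of the 17148 tested in either direction. At that share, lists of 4 and 15 genes may hold 0 calls. Of 13 other ubiquitin-like modifiers, limma called 0, edgeR and DESeq2 1 each, and 6 had an unadjusted p under 0.05. IFNγ itself raised *UBA6*, an E1 enzyme for ubiquitin and FAT10, by 1.06 in siNC cells (FDR = 4.83e-11). It also raised *UBD*, which encodes FAT10, from 0 to 13.6 CPM (FDR = 3.13e-13). Of the 13 modifiers, limma called 4 higher with IFNγ in siNC, edgeR 3 and DESeq2 2, against 6.67% of all genes by limma. Besides *UBD*, those called by limma were *UFM1* (0.77), *SUMO2* (0.62) and *ATG12*. Neither *UBA6* nor *UBD* was called by limma between siPDL1-1 and siNC after IFNγ, where *UBD* was at -0.57 on the log2 scale.

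Proteins known to carry ISG15 include antiviral sensors. With siPDL1-1 against siNC after IFNγ, 3.76% of the 17148 genes tested were called higher, and 946 were called in either direction. Of 16 genes of known ISG15 targets, 4 were higher, with a list median of 0.09. They were *IFIT1* (log2 fold change 3.49, FDR = 5.00e-11), the RNA sensors *DDX58* (3.03, FDR = 1.19e-10) and *IFIH1* (1.86, FDR = 1.57e-08), and *EIF2AK2*, the double-stranded RNA-dependent kinase. Of 25 type I interferon-response genes, 24 were higher, with a median of 2.84. *MX2* (4.79), *OAS2* (4.34) and *OAS1* (4.30) had the largest log2 fold changes, and the gene not called was *MX1*, at 4.16 against 4.41 CPM. Of 21 IFNγ-response genes, 1 was higher, *SOCS1* (1.67), and 3 were lower, *CXCL11* (-1.15), *IDO1* (-1.10) and *IRF1* (-0.63), with a median of -0.22. These falls were not particular to siPDL1-1. With siPDL1-2 against siNC after IFNγ, 6 of the 21 were lower and 0 higher, also with a median of -0.22. Of all genes, 2.91% were called there in either direction. *CXCL11* and *IDO1* were among the 6, and *IRF1*, at 383 against 540 CPM, was not called. Among 6 interferon transcription factors, *STAT2* (1.59) and *IRF9* (0.65) were higher and *IRF1* was lower with siPDL1-1. The lists overlap, and *IFIT1* was counted both as a target and as a type I interferon-response gene. *STAT2* was also counted as an accessory factor, and *IRF1* also as an IFNγ-response gene.

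**Figure D5:**
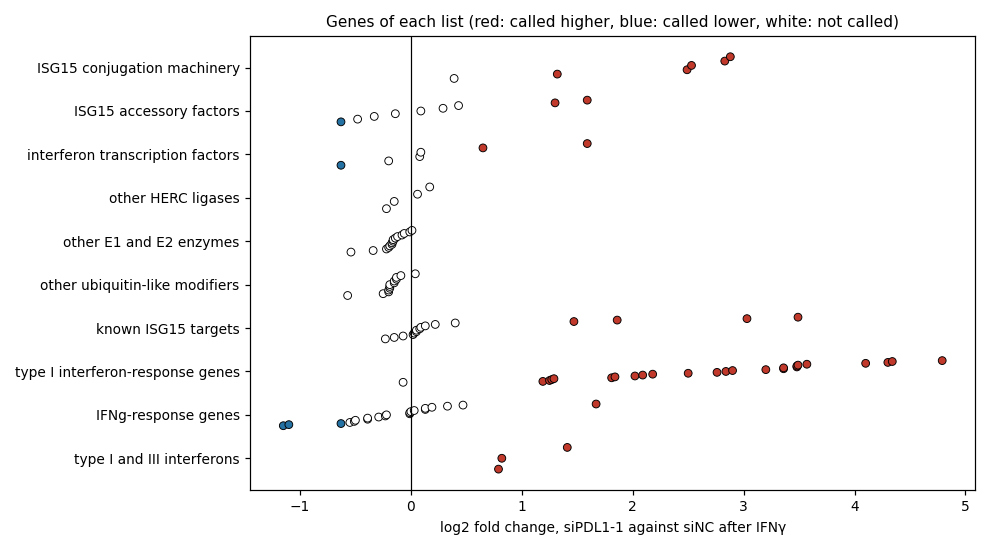
Log2 fold change of every tested gene of each list, siPDL1-1 against siNC after IFNγ, with called genes coloured. Of the ISG15 conjugation genes (median 2.51), 5 lie in the range of the called type I interferon-response genes (list median 2.84), and *UBE2L6* (0.39) lies below it. The IFNγ-response genes have a median of -0.22.

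Of 8 interferon genes examined, 4 had more reads in the siPDL1-1-IFN libraries than in any other. *IFNB1* had 18 and 26 reads in the siPDL1-1-IFN libraries and at most 2 in any other library. *IFNL1* had 59 and 36 reads there and at most 1 elsewhere, and *IFNL2* had 28 and 14 reads there and 0 elsewhere. *IFNL3*, nearly identical to *IFNL2*, had 11 and 4 reads there and at most 1 elsewhere. These counts correspond to between 0.188 and 1.69 CPM. The other 4 did not follow this pattern: *IFNE* had 6 and 12 reads in siNC-IFN and 4 and 0 in siPDL1-1-IFN, *IFNA1* and *IFNK* had at most 1 read in any library, and *IFNA2* had 0 in all of them. Of these, *IFNB1*, *IFNL1* and *IFNL2* passed the read filter through the siPDL1-1-IFN libraries alone. Limma and edgeR called all 3 in siPDL1-1 against siNC after IFNγ, where limma called 3.76% of all genes higher. Because of that filter, these calls add nothing to the read counts above. DESeq2 called 0 of 3 and gave no adjusted p for 3 of them. The macrophage-associated *CD68* was also higher in siPDL1-1-IFN than in siNC-IFN (77.4 against 41.4 CPM), while *PTPRC* and *CD3E* stayed near 0. The summed level of the 16 markers of other cells was 166 to 171 CPM in siPDL1-1-IFN, 142 CPM in siNC-IFN and 146 to 160 CPM in siPDL1-2-IFN. Between siPDL1-1 and siNC after IFNγ, 1 of the 10 tested was called, where limma called 946 of 17148 genes in either direction. The part of these reads and markers in the changes of the ISG15 genes was not tested.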

How the data were processed

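RNA was measured in 12 libraries of U251 cells, grouped by their sample labels. Per the methods, trimming, mapping to GRCh38 (Ensembl genes), counting without regard to strand and normalization were all done by the authors in CLC Genomics Workbench. The signal values deposited by the authors are these normalized CPM, whose column totals were 0.965 to 1.042 times those of plain CPM. All values (100.0%) came out as whole reads within 0.01 read, so reads were recovered for filtering and for count tests. Between 17101069 and 55657393 reads per library set the precision. The sample labels and the paper name different extraction kits and instruments.

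Values were compared with limma (trend, robust) on log2(CPM + 1), which understates the change of low genes. Low genes were removed by edgeR's filterByExpr, with a minimum count of 10 and a minimum total of 15 recovered reads. Calls needed an FDR (Benjamini-Hochberg, all genes tested) below 0.01 together with a change above 1.5-fold. All 12 libraries were fitted as 6 groups for 17982 genes, and the 6 IFNγ libraries as 3 groups for 17148 genes for comparisons after IFNγ. Fold changes in CPM are ratios of group means. The methods give independent experiments as the source of the libraries and the labels do not, so p-values measure the spread between these libraries.

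The 6 genes and the lists were chosen with earlier results of these data known, and the lists were written from general knowledge. Genes named from a list were the 3 with the largest log2 fold changes among those called with IFNγ in siNC or with siPDL1-1 after IFNγ, and *EIF2AK2*, *MX1* and the marker genes were added to complete counts. Likeness was ranked by r over genes averaging 1 CPM or more. Alternatives were a pseudocount of 0.1, DESeq2's size factors and Wald test, edgeR's quasi-likelihood test, no filter, a replicate block, leaving out each library, other library sets and no fold threshold. On simulated counts limma recovered 197 of 200 genes changed by 1.5 (log2) for IFNγ in siNC, and 198 of 200 for siPDL1-1 after IFNγ, with 0 false calls in each. The changed genes were above 1 CPM, the other genes had equal means, and the spread was set rather than estimated from these libraries. The recovery holds for those settings and does not measure the error rate in these data. Replicates were checked for duplication, with a mean chi-square of 1.85 to 7.76 per gene, where copies would give 0. The tools were DESeq2 1.42.0, edgeR 4.0.16 and limma 3.58.1 in R 4.3.3, and matplotlib 3.10.9, pandas 2.3.3 and numpy 2.4.6 in Python 3.11.15.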

Additional observations from a re-analysis of the deposited data

Results flagged for a closer look

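The response to IFNγ differed between siPDL1-1 and siNC cells, by limma's test of the difference between the IFNγ effects, for 5 of the 6 genes, where 0.890% of all genes tested were called higher. On the log2 scale the response with siPDL1-1 was larger by 2.53 for *HERC5*, 2.49 for *USP18*, 2.48 for *HERC6*, 2.15 for *ISG15* and 1.36 for *UBA7*. With siPDL1-2 the same test called 0 of the 6 genes by limma and by edgeR, and 1 by DESeq2, with 3 at an unadjusted p under 0.05, and limma called 7.62% of all genes tested in either direction.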

How the results depend on the processing

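Of the values of single genes under the alternatives, 825 kept their direction and their side of the thresholds, 20 passed newly, 7 no longer passed and 6 changed sign. The number of the 6 genes called with siPDL1-1 after IFNγ, and with siPDL1-1 in its dependence on IFNγ, stayed within 1.5 times that reported under every alternative run. Without stimulation, the count for siPDL1-1 against siNC fell from 1 to 0 with edgeR, and ranged from 0 to 1 when single libraries were left out. Without a fold threshold, 3 genes were called with siPDL1-2 against siNC unstimulated, 2 between the siRNAs unstimulated and 4 with siPDL1-2 after IFNγ. At that setting, the calls over all genes were 5107 and 4338 of 17982 and 1659 of 17148. The count of the 6 genes with siPDL1-2 after IFNγ ranged from 0 to 1 when single libraries were left out. The dependence of the siPDL1-2 effect on IFNγ gave 1 called gene, *ISG15*, with DESeq2's size factors and with its Wald test, and from 0 to 1 when single libraries were left out. The sign changes were of small values that were not called. *HERC6* with IFNγ in siNC became -0.10 without siNC-C replicate 2 and -0.05 without siNC-IFN replicate 2. *USP18* with siPDL1-1 unstimulated became 0.05 without siNC-C replicate 2 and 0.06 without siPDL1-1-C replicate 2. *HERC6* between the siRNAs unstimulated became 0.05 without siPDL1-1-C replicate 1 or siPDL1-2-C replicate 2. Over all single omissions these 3 values ranged from -0.10 to 0.19, from -0.08 to 0.06 and from -0.12 to 0.05. *HERC5* with siPDL1-1 unstimulated, 0.00 as reported and so without a sign, lay between -0.04 and 0.01. The causes were not tested. Over all genes, calls with siPDL1-2 after IFNγ fell from 499 to 172 and 143 without siPDL1-2-IFN replicate 1 or 2, and those between the siRNAs after IFNγ from 362 to 224 and 213. Calls for the siPDL1-2 effect that depends on IFNγ fell from 1370 to 890 without siPDL1-2-IFN replicate 2. Without a fold threshold, IFNγ in siNC gave 4901 calls over all genes against 1460. The replicate block left the counts of called genes of the 6 unchanged (5 with siPDL1-1 after IFNγ). Same-numbered libraries deviated together with r from -0.132 to 0.193, which does not decide whether the numbers pair them. With 2 libraries a group, leaving out 1 assumes that the lone library varies like the other groups.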
